A study of Mus musculus with 10 samples.

Results

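The genes described are the nuclear-encoded subunits of the mitochondrial respiratory chain and ATP synthase, whose transcripts were sequenced in Th17 cells of the mouse, helper T cells known for secreting IL-17. They were chosen by symbol alone: Nduf genes for complex I, Sdha to Sdhd for complex II, Uqcr genes and Cyc1 for complex III, Cox4 to Cox8 genes for complex IV and Atp5 genes for complex V, without pseudogene entries. This gave 82 of the 17493 genes in the table. The cells were naive CD4 T cells from spleens of C57BL/6 mice, activated through CD3 and CD28 with IL-6 (20 ng/mL) and TGF-beta (2.5 ng/mL) for 48 to 72 h. One group received TMP269, an inhibitor selective for class IIa histone deacetylases, before harvest, and the control group received DMSO, with 2 libraries in each group. Both groups shared the strain, the activation and the polarising cytokines. The sources used here give neither the dose of TMP269 nor its duration, nor the age of the mice, nor whether each replicate is its own culture or animal, so p-values measure the spread between these libraries, which may be technical.

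The respiratory chain passes electrons from NADH through complex I, or from succinate through complex II, to ubiquinone, then through complex III and cytochrome c to complex IV, where oxygen is reduced. Complexes I, III and IV pump protons, and complex V, the ATP synthase, uses the proton gradient to make ATP. Most subunits are encoded in the nucleus and a few in mitochondrial DNA, whose transcripts are not analysed here. Activation of T cells is known to raise both glycolysis and mitochondrial respiration.

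Values are normalised reads, that is, reads per gene divided by a size factor for the library, and they are compared here only within a gene because the table gives no transcript lengths. The libraries held 20007042 to 25321455 reads, and the subunits together took 0.910% and 0.947% of reads in TMP269 replicates 1 and 2, against 1.09% and 1.11% in DMSO replicates 1 and 2. The ribosomal RNA gene Rn45s took 0.716% and 1.12% of reads in the TMP269 libraries and 0.836% and 2.20% in the DMSO libraries, so that DMSO replicate 2 stood apart. The 5 T cell markers in the table, Cd3d, Cd3e, Cd3g, Cd4 and Lck, summed to 32277 and 33194 normalised reads in the TMP269 libraries and to 30464 and 33073 in the DMSO libraries, and none was called. The Th17 genes Il17a, Il17f and Ccr6 were called lower. Neither of 2 CD8 T cell markers was called. The 6 B lineage markers summed to 2329 and 2316 normalised reads in the TMP269 libraries, against 4112 and 4118 in the DMSO libraries, and 4 of them were called lower. Among 4 dendritic cell markers Flt3 was called lower and Siglech was at most 2.85 normalised reads in any library. Itgax had 41.3 and 46.5 normalised reads in the TMP269 libraries, against 28.8 and 20.5 in the DMSO libraries, and Xcr1 had 19.6 and 29.4 normalised reads in the TMP269 libraries, against 12.6 and 10.9 in the DMSO libraries. Each TMP269 library was above both controls for Itgax and Xcr1, but neither gene passed the test (limma adjusted p = 0.0709 and 0.0893). The 5 myeloid markers summed to 41.3 and 58.9 in the TMP269 libraries and to 39.6 and 32.6 in the DMSO libraries, and neither of the 2 that were tested was called. Of 3 NK markers Ncr1 and Klrb1c were at or below 1.90 normalised reads in every library. The third, Klrd1, had 57.9 and 186 normalised reads in the TMP269 libraries, against 104 and 209.9 in the DMSO libraries, with overlapping groups, and was not called (limma adjusted p = 0.471). The part of these other cell types in the results below was not tested, and in bulk RNA fewer cells of a type cannot be told apart from less RNA per cell.

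With TMP269 most subunit genes of each of the 5 complexes were lower. Of the 82 genes, 79 had a value of at least 10 normalised reads in at least 2 libraries and were tested. Of these, 51 fell (64.6%) and 1 rose, each at a limma adjusted p under 0.05 over all 12535 genes tested, while 14.7% of all tested genes were called lower and 12.8% higher. The median log2 fold change of the subunits was -0.34, a level with TMP269 of 78.9% of that in DMSO, with an interquartile range of -0.41 to -0.26. The median over all tested genes was 0.00, with an interquartile range of -0.23 to 0.26. Negative fold changes were found for 76 of the 79 subunits and for 50.3% of all tested genes. In 63 subunits both TMP269 libraries lay below both DMSO libraries, which was the case for 34% of all tested genes.

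**Figure D1:**
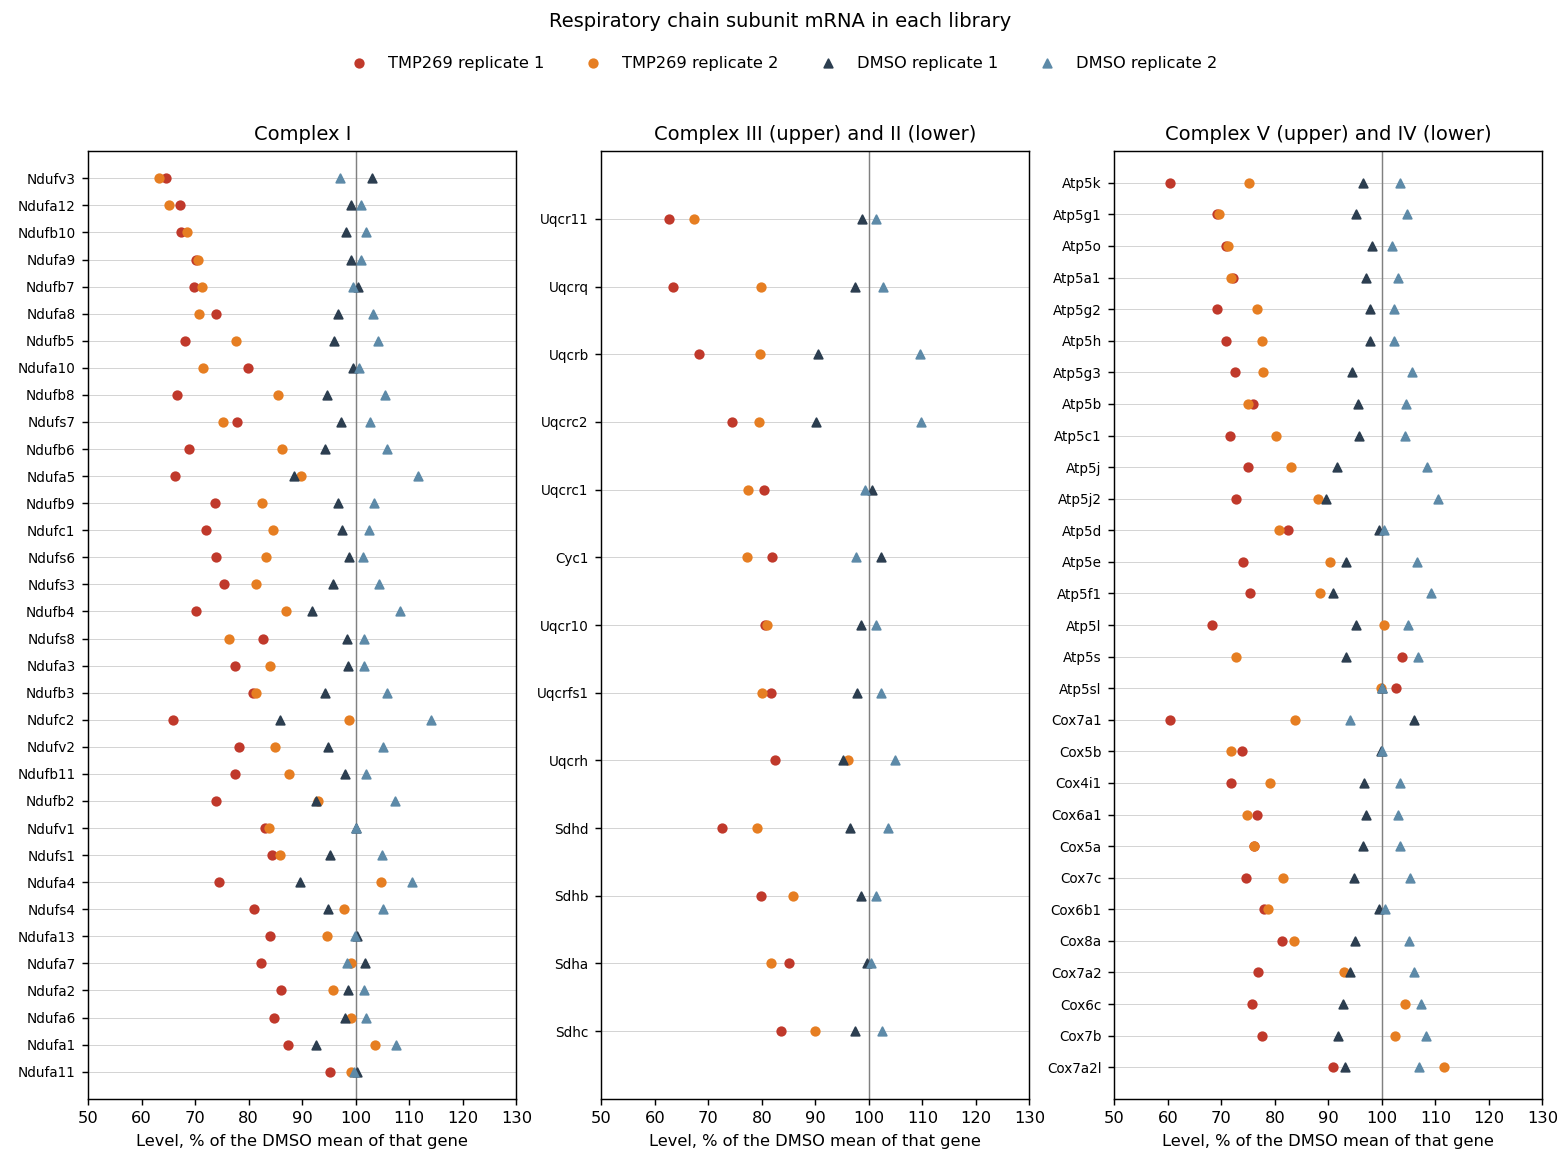
Normalised level of each tested subunit gene in each library (x axis, % of that gene's DMSO mean), with circles for TMP269 and triangles for DMSO; Cox4i2 and Cox6b2 lie outside the axis and are left out, and not every other gene is shown. In most rows both circles lie left of both triangles, and in 63 of the 79 tested genes the groups were separate in this direction.

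The count of calls depended on the scaling and on single libraries, whereas the scaling left the distance of the subunits' median from that of all genes at -0.34. With libraries scaled to equal totals the median of all genes moved to 0.10 and that of the subunits to -0.24, so both shifted by the same 0.10, as single genes do under another scaling of whole libraries, and 28 subunits were called lower beside 8.31% of all genes. With Rn45s left out of those totals the count was 31, beside 9.18% of all genes. Equal totals raised the share of higher genes among all calls to 67.3%, against 46.5% with the authors' size factors. Without TMP269 replicate 1, 23 subunits were called lower beside 9.09% of all genes, and without DMSO replicate 2, 28 beside 8.1%. The median log2 fold change of the subunits stayed between -0.40 and -0.29 whichever library was left out. A group of 19 subunits was called lower with all libraries and without each in turn, 24.1% of those tested, against 6.05% of all tested genes, and Cox6b2 was called higher in all of these fits, as were 6.13% of all tested genes. These 19 were Ndufa8, Ndufa9, Ndufa12, Ndufb5, Ndufb7, Ndufb10, Ndufs7 and Ndufv3 of complex I, Uqcr11 of complex III, Cox5a, Cox5b, Cox6a1 and Cox6b1 of complex IV, and Atp5a1, Atp5g1, Atp5g2, Atp5h, Atp5k and Atp5o of complex V. The same 19 were also called lower with edgeR, DESeq2, equal totals and each of the other scalings, pseudocounts and filters tried.

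**Figure D2:**
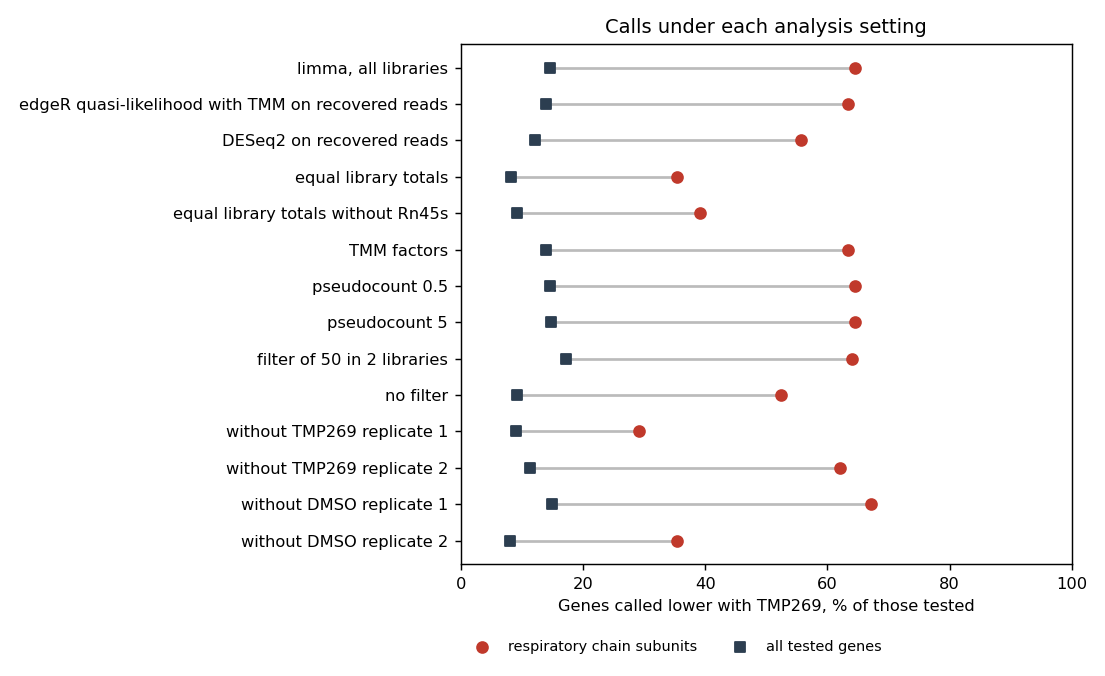
Share of tested genes called lower with TMP269 (x axis, %) for the respiratory chain subunits (circles) and for all tested genes (squares) under each analysis setting other than the replicate block. In the settings drawn the subunits' share ran from 29.1% without TMP269 replicate 1 to 67.1% without DMSO replicate 1, and it lay above that of all genes in each setting shown.

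The promoters of such genes are known for binding sites of NRF1 and of the ETS factor GABPA, which drive many genes of mitochondrial respiration, and of YY1. RefSeq promoter windows on GRCm38.p6, a build other than that of the authors' table, were matched by symbol for 67 of the 82 genes and cover 250 bases before to 50 bases after the start of transcription. Both strands were searched for the NRF1 motif, which is GCGCA followed by its reverse complement TGCGC, the ETS motif CCGGAAG, the YY1 motif AANATGGC and the E-box CACGTG, and none of these motifs holds another. The last 100 bases before the start are shown for genes that fell in each of the 5 complexes and for Cox6b2, the gene that rose, with matches to any of the 4 motifs in capitals. They lie at Ndufv3 (chr17:31520015-31520114, plus strand), Ndufb7 (chr8:83566658-83566757, plus strand), Sdhd (chr9:50603850-50603949, minus strand), Uqcr11 (chr10:80406822-80406921, minus strand), Cox6a1 (chr5:115348959-115349058, minus strand), Cox6b2 (chr7:4753095-4753194, minus strand), Atp5g2 (chr15:102671048-102671147, minus strand) and Atp5k (chr5:108434400-108434499, minus strand), each written 5′ to 3′ on the gene's strand.
Ndufv3: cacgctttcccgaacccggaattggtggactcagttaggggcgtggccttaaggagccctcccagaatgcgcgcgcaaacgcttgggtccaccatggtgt
Ndufb7: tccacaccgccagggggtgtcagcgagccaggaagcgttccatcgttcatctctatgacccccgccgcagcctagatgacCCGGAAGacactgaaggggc
Sdhd: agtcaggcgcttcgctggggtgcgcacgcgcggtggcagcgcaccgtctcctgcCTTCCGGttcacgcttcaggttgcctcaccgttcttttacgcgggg
Uqcr11: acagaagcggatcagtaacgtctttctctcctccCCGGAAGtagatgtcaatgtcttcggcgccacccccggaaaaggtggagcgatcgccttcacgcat
Cox6a1: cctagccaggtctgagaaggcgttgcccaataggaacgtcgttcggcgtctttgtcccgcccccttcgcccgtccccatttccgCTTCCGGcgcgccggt
Cox6b2: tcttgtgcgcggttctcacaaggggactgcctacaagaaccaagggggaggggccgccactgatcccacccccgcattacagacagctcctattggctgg
Atp5g2: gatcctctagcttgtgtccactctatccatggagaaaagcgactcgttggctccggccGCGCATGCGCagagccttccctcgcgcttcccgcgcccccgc
Atp5k: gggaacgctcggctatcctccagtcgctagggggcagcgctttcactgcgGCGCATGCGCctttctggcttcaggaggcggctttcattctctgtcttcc
The capitals mark an ETS motif in Ndufb7, Sdhd, Uqcr11 and Cox6a1, on the opposite strand in Sdhd and Cox6a1, and an NRF1 motif, which reads the same on both strands, in Atp5g2 and Atp5k. Outside the bases shown, Cox6a1 also held an NRF1 motif further upstream and Atp5k an ETS motif after the start. Neither Ndufv3, with the largest fall in complex I, nor Cox6b2 held any of the 4 motifs in its whole window. The genes shown are examples, and ETS and NRF1 motifs are more frequent among them than among the 67 subunit genes counted next. An NRF1 motif was found in 5 of the 67 subunit genes (7.46%). The share was 2.38% of 9364 other tested genes and 1.07% of all genes with a promoter window. YY1 motifs were found in 18 (26.9%), against 10.1% of other tested genes and 6.96% of all genes with a window. ETS motifs were found in 16 (23.9%), against 20.3% and 9.93%, and E-boxes in 7 (10.4%), against 11.9% and 8.09%. The median log2 fold change was -0.35 in the 16 tested genes with an ETS motif, of which 13 fell, and -0.31 in the 50 without, of which 30 fell. With a YY1 motif the median was -0.33 over 18 genes, of which 12 fell, and without it -0.35 over 48, of which 31 fell. The 5 genes with an NRF1 motif had a median of -0.40 and 4 of them fell, and the 61 without had a median of -0.33 and 39 of them fell. With an E-box 3 of 7 fell, and without it 40 of 59. These are matches of letters, given as a description with no test.

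Complex I, the NADH dehydrogenase, had 36 genes in the table, of which 35 were tested. Of these, 21 fell and none rose, all 35 had a negative fold change and the median log2 fold change was -0.33. By arm of the complex, 5 of 9 genes of the NADH-oxidising N module fell (median -0.26), 4 of 7 of the ubiquinone-reducing Q module (median -0.35) and 12 of 18 of the proton-pumping membrane arm (median -0.35). The assignment of genes to arms is from general knowledge of the complex, and the difference between arms was not tested.

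The smallest p in complex I belonged to Ndufv3, an accessory subunit at the NADH-binding flavoprotein, with 1269 and 1242 normalised reads in the TMP269 libraries, against 2024 and 1906 in the DMSO libraries. Both TMP269 libraries were well below both controls, 36% lower (log2 fold change -0.64 ± 0.08 (SE), limma adjusted p = 0.00114). Ndufa12, an accessory subunit of the same arm, was at 888 and 860.5 normalised reads in the TMP269 libraries, against 1310.1 and 1334 in the DMSO libraries, and the groups were again separate (log2 fold change -0.60 ± 0.08 (SE), limma adjusted p = 0.00183). Ndufb10, of the distal membrane arm, had 1079 and 1096 normalised reads in the TMP269 libraries, against 1571 and 1631 in the DMSO libraries. Its TMP269 values were 32% lower on the fitted scale (log2 fold change -0.56 ± 0.08 (SE), limma adjusted p = 0.00200), and Ndufa9, Ndufb7 and Ndufa8 fell by 29.6%, 29.5% and 27.7% (limma adjusted p = 0.00247, 0.00299 and 0.00466).

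The core subunits of complex I on the electron path, from the NADH site to the ubiquinone site, did not all pass the test. Ndufv1, which binds NADH and flavin, was at 1994 and 2014 normalised reads in the TMP269 libraries, against 2403 and 2404 in the DMSO libraries, with little spread in either group and 16.6% lower (log2 fold change -0.26 ± 0.07 (SE), limma adjusted p = 0.0311). Ndufv2, an iron-sulphur subunit beside it, was at 1757 and 1908 normalised reads in the TMP269 libraries, against 2131 and 2362 in the DMSO libraries (log2 fold change -0.29 ± 0.09 (SE), limma adjusted p = 0.0372). The iron-sulphur subunit gene Ndufs7 fell by 23.5%, Ndufs8 by 20.5% and Ndufs3, a subunit of the Q module, by 21.6% (limma adjusted p = 0.00978, 0.0207 and 0.0184). Ndufs1, the largest iron-sulphur subunit, lay just past the threshold at 1622 and 1651 normalised reads in the TMP269 libraries, against 1831 and 2017 in the DMSO libraries. The groups did not overlap, but it was not called (log2 fold change -0.23 ± 0.08 (SE), limma adjusted p = 0.0686, and 0.0448 without DMSO replicate 1).

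Single libraries decided several of these calls. Ndufv1 was not called without any one of the 4 libraries, with adjusted p = 0.166 and 0.124 without TMP269 replicates 1 and 2 and 0.0682 and 0.0968 without DMSO replicates 1 and 2. Without TMP269 replicate 1 the limma adjusted p was 0.109 for Ndufs3 and 0.219 for Ndufv2, and without DMSO replicate 2 it was 0.0951 and 0.182. Ndufs8 lost its call without DMSO replicate 2 (0.0827) or TMP269 replicate 2 (0.133). Closest to the threshold from within were Ndufc1 and Ndufb6, small membrane-arm subunits, at adjusted p = 0.0416 and 0.0442. Both lost their calls without TMP269 replicate 1 (0.283 for Ndufc1 and 0.289 for Ndufb6) and without DMSO replicate 2 (0.149 and 0.170), and Ndufc1 also without DMSO replicate 1 (0.0571). From outside, Ndufs1 and Ndufb4 were the nearest, with Ndufb4 at 666 and 825 normalised reads in the TMP269 libraries, against 870.1 and 1026 in the DMSO libraries and an adjusted p of 0.0721, which was 0.0296 without DMSO replicate 1 and 0.00941 without TMP269 replicate 2.

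The subunits that were not called had smaller fold changes and differed more between replicates than those that fell. A call weighs the fold change against the spread between replicates, so sorting genes by call itself favours both differences. Over the 27 tested subunits that were not called the median log2 fold change was -0.17, against -0.40 over the 51 that fell. The median SE of the log2 fold change was 0.11 for those not called, against 0.08 for those that fell. The median gap between replicates was 0.27 on the log2 scale in TMP269 and 0.17 in DMSO for those not called, against 0.10 in TMP269 and 0.08 in DMSO for those that fell. Ndufc2, a membrane-arm subunit, had 1537 and 2304 normalised reads in the TMP269 libraries, against 2005 and 2662 in the DMSO libraries, so that TMP269 replicate 2 lay between the controls (log2 fold change -0.30 ± 0.19 (SE), limma adjusted p = 0.263). Ndufa4, which is classed here by its name but is now known as a subunit of complex IV, had 2072 and 2917 normalised reads in the TMP269 libraries, against 2495 and 3079 in the DMSO libraries. Its groups overlapped (log2 fold change -0.17 ± 0.16 (SE), limma adjusted p = 0.436, 95% interval -0.53 to 0.18), with an adjusted p of 0.0175 without TMP269 replicate 2 and a positive log2 fold change of 0.074 without TMP269 replicate 1. Its paralogue Ndufa4l2, a known target of hypoxia-inducible factor, was at most 1.80 normalised reads in any library and was not tested.

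Complex II, the succinate dehydrogenase, joins the citric acid cycle to the chain and has no subunit from mitochondrial DNA. Of its 4 genes 3 fell, and in all 4 both TMP269 libraries lay below both controls (median log2 fold change -0.27). Sdhd, a membrane anchor, was at 1651 and 1799 normalised reads in the TMP269 libraries, against 2194 and 2356 in the DMSO libraries. This was 24.2% lower (log2 fold change -0.40 ± 0.08 (SE), limma adjusted p = 0.00971). Sdhb, the iron-sulphur subunit, was at 2583 and 2778 normalised reads in the TMP269 libraries, against 3191 and 3283 in the DMSO libraries, and Sdha, the flavoprotein that oxidises succinate, at 5737 and 5513 normalised reads in the TMP269 libraries, against 6721 and 6764 in the DMSO libraries. They were lower by 17.2% and 16.6% (limma adjusted p = 0.0317 and 0.0335). The other anchor gene, Sdhc, was at 1451 and 1560.5 normalised reads in the TMP269 libraries, against 1691 and 1778 in the DMSO libraries and was not called (log2 fold change -0.20 ± 0.08 (SE), limma adjusted p = 0.0986, 95% interval -0.39 to -0.02).

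No call in complex II held without each library in turn. Without TMP269 replicate 1 none of the 4 genes was called, with adjusted p = 0.0555 for Sdhd, 0.245 for Sdhb and 0.130 for Sdha. Sdha also lost its call without DMSO replicate 1 (0.0626), DMSO replicate 2 (0.0996) or TMP269 replicate 2 (0.222), and Sdhb without DMSO replicate 2 (0.113) or TMP269 replicate 2 (0.0582). With equal library totals only Sdhd stayed called, with adjusted p = 0.0265, against 0.115 for Sdhb and 0.150 for Sdha.

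In complex III, the cytochrome bc1 complex, 8 of 9 genes fell, with a median log2 fold change of -0.34. Uqcr11, a small accessory subunit, was at 969.5 and 1044 normalised reads in the TMP269 libraries, against 1529.6 and 1569 in the DMSO libraries. The TMP269 libraries were close to each other and 35% lower than the controls (log2 fold change -0.62 ± 0.08 (SE), limma adjusted p = 0.00164). Uqcrq, a ubiquinone-binding accessory subunit, was at 1705 and 2149 normalised reads in the TMP269 libraries, against 2623 and 2761 in the DMSO libraries (log2 fold change -0.49 ± 0.11 (SE), limma adjusted p = 0.0124), and Uqcrc1, a core protein of the matrix side, at 3515 and 3378 normalised reads in the TMP269 libraries, against 4395 and 4339.7 in the DMSO libraries (log2 fold change -0.34 ± 0.07 (SE), limma adjusted p = 0.0111). Both electron-carrying genes of the complex that lie in the nucleus fell. Cyc1, cytochrome c1, was at 3521 and 3322 normalised reads in the TMP269 libraries, against 4402 and 4201 in the DMSO libraries, and Uqcrfs1, the Rieske iron-sulphur protein, at 2474 and 2426 normalised reads in the TMP269 libraries, against 2960.2 and 3096 in the DMSO libraries. They were lower by 20.5% and 19.1% (limma adjusted p = 0.0149 and 0.0179).

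Uqcrh, the hinge protein, was the member of complex III that was not called. Its values were 2232 and 2601 normalised reads in the TMP269 libraries, against 2578 and 2839 in the DMSO libraries, and the groups overlapped by the margin between TMP269 replicate 2 and DMSO replicate 1 (log2 fold change -0.17 ± 0.10 (SE), limma adjusted p = 0.225). Without TMP269 replicate 1 the calls of Uqcrq, Uqcrfs1, Uqcrb, Uqcrc2 and Uqcr10 were lost. Those of Cyc1, Uqcrc1, Uqcrfs1 and Uqcr10 were lost without TMP269 replicate 2. Leaving out DMSO replicate 2 removed the calls of Uqcrfs1, Uqcr10, Uqcrb and Uqcrc2. With equal library totals 3 genes of complex III were called. Cyc1, Uqcrc1 and Uqcrfs1 were among those not called (limma adjusted p = 0.0850, 0.0557 and 0.0713).

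In complex IV, cytochrome c oxidase, 14 of 16 genes were tested, and 8 fell and 1 rose (median log2 fold change -0.35). Of the 10 widely expressed subunit forms 7 fell. Cox5b, a zinc-binding subunit on the matrix side, was at 2268 and 2203 normalised reads in the TMP269 libraries, against 3065 and 3069.6 in the DMSO libraries. The replicates of each group were nearly equal, and the level was 27.1% lower (log2 fold change -0.46 ± 0.07 (SE), limma adjusted p = 0.00345). Cox6a1, the widely expressed form of a subunit that has a muscle form, was at 4849.6 and 4735 normalised reads in the TMP269 libraries, against 6135 and 6518 in the DMSO libraries (log2 fold change -0.40 ± 0.08 (SE), limma adjusted p = 0.00684). Cox5a was at 2709 and 2707 normalised reads in the TMP269 libraries, against 3435 and 3681 in the DMSO libraries (log2 fold change -0.39 ± 0.08 (SE), limma adjusted p = 0.00716). Cox4i1, the common form of the regulatory subunit that binds ATP, was at 5431 and 5984 normalised reads in the TMP269 libraries, against 7305 and 7818 in the DMSO libraries, 24.6% lower (log2 fold change -0.41 ± 0.09 (SE), limma adjusted p = 0.00953, and 0.0776 without TMP269 replicate 1). Cox7b had 2014 and 2658 normalised reads in the TMP269 libraries, against 2379 and 2808 in the DMSO libraries and was not called (log2 fold change -0.16 ± 0.13 (SE), limma adjusted p = 0.400). It passed without TMP269 replicate 2 (0.0405), and its log2 fold change was 0.041 without TMP269 replicate 1.

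Members of isoform pairs in complex IV did not all go the same way. Cox6b2, the form of subunit VIb known from testis, was the subunit gene that rose, with 310.1 and 258 normalised reads in the TMP269 libraries, against 108 and 72.4 in the DMSO libraries. The lower TMP269 value was well above the higher control, a 3.18-fold rise on the log2(value + 1) scale (n = 2 in each group, log2 fold change 1.67 ± 0.21 (SE), limma adjusted p = 0.00125), and it was called without each library in turn. Its widely expressed counterpart Cox6b1 was at 1921 and 1939 normalised reads in the TMP269 libraries, against 2452 and 2479 in the DMSO libraries, 21.7% lower (log2 fold change -0.35 ± 0.07 (SE), limma adjusted p = 0.00980). Cox4i2, the form known from lung and from the response to hypoxia, was near the lower limit of detection, at 5.17 and 10.4 normalised reads with TMP269 (5 and 11 reads) and 29.7 and 25.3 with DMSO (33 and 21 reads). The groups were separate (log2 fold change -1.76 ± 0.44 (SE), limma adjusted p = 0.0183), but the adjusted p was 0.0815 without TMP269 replicate 1 and 0.0702 with DESeq2. In RefSeq the span of Cox4i2 overlaps that of Bcl2l1, and without a stated strand setting reads of overlapping genes cannot be told apart.

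Cox7a1, the form known from heart and skeletal muscle, had 58.9 and 81.7 normalised reads in the TMP269 libraries, against 103 and 91.7 in the DMSO libraries. Both TMP269 values were below both controls, and it was not called (log2 fold change -0.48 ± 0.23 (SE), limma adjusted p = 0.142). Cox7a2, its widely expressed counterpart, was at 1712 and 2069.6 normalised reads in the TMP269 libraries, against 2094 and 2360.4 in the DMSO libraries and was not called either (log2 fold change -0.24 ± 0.11 (SE), limma adjusted p = 0.129), although the p was 0.0297 without TMP269 replicate 2. Cox7a2l is known for a part in joining complexes III and IV into supercomplexes, and its function in this strain was not examined here. It was at 3437 and 4216 normalised reads in the TMP269 libraries, against 3517 and 4042 in the DMSO libraries. The groups overlapped and no change was detectable (log2 fold change 0.014, 95% interval -0.24 to 0.27, limma adjusted p = 0.938), with a sign that turned to -0.09 without DMSO replicate 1 and -0.13 without TMP269 replicate 2. Cox8a, the widely expressed form of subunit VIII, fell by 17.4%, with 3425 and 3519.9 normalised reads in the TMP269 libraries, against 3998 and 4418 in the DMSO libraries (limma adjusted p = 0.0356). That call was lost without TMP269 replicate 1 (0.174), TMP269 replicate 2 (0.0954) or DMSO replicate 2 (0.179). The muscle forms Cox6a2 and Cox8b reached at most 7.20 and 1.21 normalised reads in any library and were not tested.

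**Figure D3:**
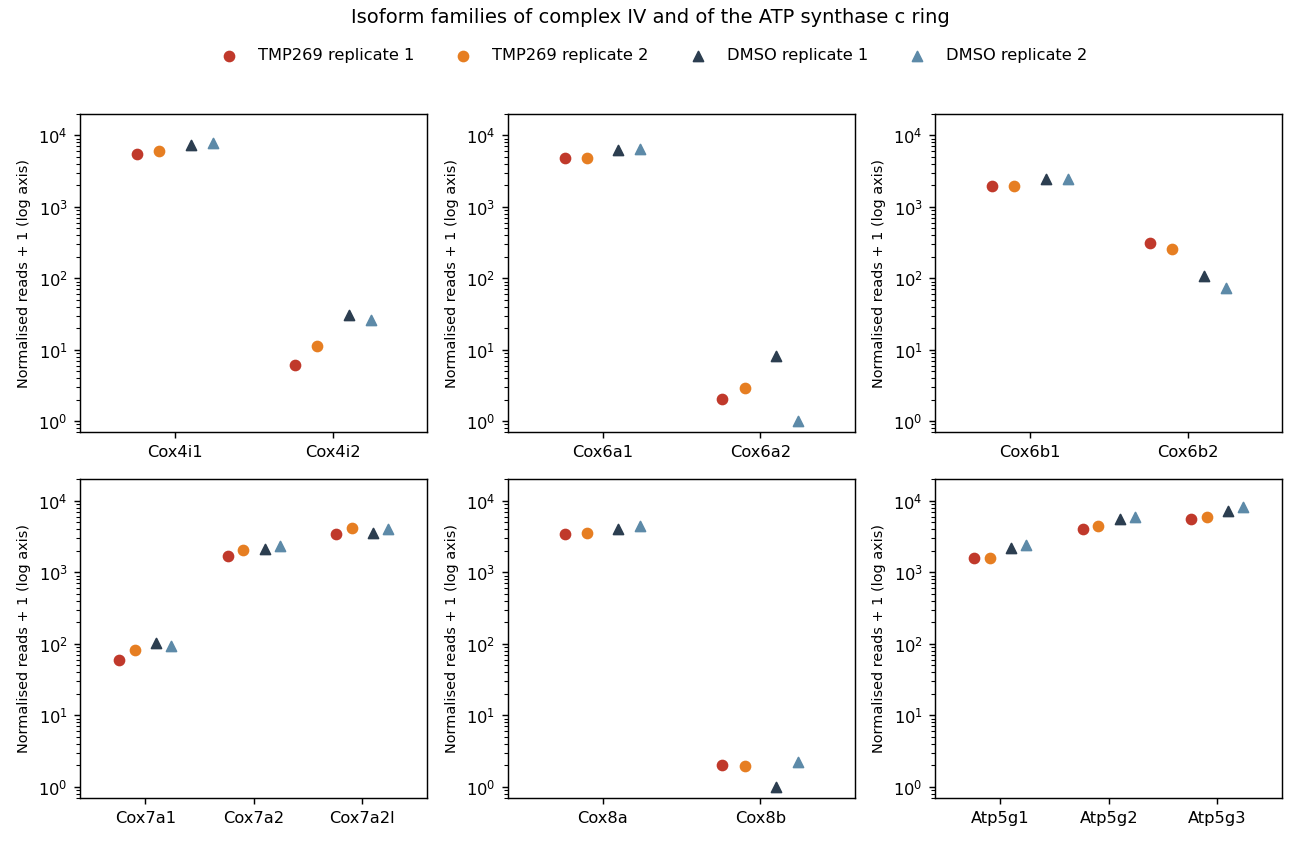
Normalised reads plus 1 on a log axis for isoform families of complex IV and for the 3 genes of the ATP synthase c ring, in each library (circles TMP269, triangles DMSO). Cox6b2 lies higher in both TMP269 libraries (310.1 and 258 normalised reads) than in both DMSO libraries (108 and 72.4), whereas Cox4i2 and all 3 Atp5g genes lie lower.

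Complex V, the ATP synthase, had 17 genes, of which 11 fell and none rose, with a median log2 fold change of -0.40. Its sum over genes was 87296 and 91434 normalised reads in the TMP269 libraries, against 112942 and 123104 in the DMSO libraries. Atp5o, the stalk subunit that confers oligomycin sensitivity, was at 2549.9 and 2562 normalised reads in the TMP269 libraries, against 3527 and 3661 in the DMSO libraries. The replicates of each group were close and the groups separate (log2 fold change -0.49 ± 0.07 (SE), limma adjusted p = 0.00250). Of 5 genes of the F1 part of the enzyme, which holds the catalytic beta subunit, 4 fell. Atp5a1, the alpha subunit, was at 17248 and 17160.5 normalised reads in the TMP269 libraries, against 23201 and 24598 in the DMSO libraries (log2 fold change -0.47 ± 0.09 (SE), limma adjusted p = 0.00687). Atp5b, the catalytic beta subunit, was at 28609.9 and 28256 normalised reads in the TMP269 libraries, against 36037 and 39399.6 in the DMSO libraries, 24.5% lower (log2 fold change -0.41 ± 0.11 (SE), limma adjusted p = 0.0214), but its adjusted p was 0.148 without TMP269 replicate 1, 0.146 without TMP269 replicate 2 and 0.0835 without DMSO replicate 2. All 3 genes of the c subunit, which encode the same mature protein of the rotating ring, fell.

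Among the c subunit genes Atp5g1 was at 1578 and 1586 normalised reads in the TMP269 libraries, against 2174 and 2392 in the DMSO libraries (log2 fold change -0.53 ± 0.08 (SE), limma adjusted p = 0.00287). Atp5g2 was at 3995 and 4419 normalised reads in the TMP269 libraries, against 5642 and 5892 in the DMSO libraries (log2 fold change -0.46 ± 0.08 (SE), limma adjusted p = 0.00516). Atp5g3 was at 5589 and 5986 normalised reads in the TMP269 libraries, against 7267 and 8122 in the DMSO libraries (log2 fold change -0.41 ± 0.09 (SE), limma adjusted p = 0.0103, and 0.0588 without TMP269 replicate 1). The groups were separate in all 3, with falls of 30.6%, 27.1% and 24.7%. Of 7 peripheral stalk and membrane genes 4 fell. Atp5k, a small membrane subunit also known as subunit e, was at 844 and 1049.5 normalised reads in the TMP269 libraries, against 1349.7 and 1446 in the DMSO libraries (log2 fold change -0.57 ± 0.11 (SE), limma adjusted p = 0.00750). Atp5l, subunit g, was at 1700.3 and 2499 normalised reads in the TMP269 libraries, against 2370.0 and 2611 in the DMSO libraries, and TMP269 replicate 2 lay between the controls (log2 fold change -0.27 ± 0.16 (SE), limma adjusted p = 0.221). Atp5s and Atp5sl, which carry the Atp5 name but are not structural subunits of the enzyme, were not called (limma adjusted p = 0.601 and 0.915), and without them 11 of 15 complex V genes fell.

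Assembly factors, which serve the chain without belonging to it, were called lower in a smaller share than its subunits. Of 47 tested assembly factors of the 5 complexes 10 fell and none rose, 21.3% beside 14.7% of all tested genes called lower, with a median log2 fold change of -0.16. Ecsit, a complex I assembly factor, had 609.8 and 559 normalised reads in the TMP269 libraries, against 899 and 866 in the DMSO libraries, 33.8% lower (log2 fold change -0.59 ± 0.10 (SE), limma adjusted p = 0.00339). Uqcc2, for complex III, fell by 31.7%, and Ndufaf4, for complex I, by 28.1% (limma adjusted p = 0.00699 and 0.0132). The adjusted p of Ndufaf4 was 0.0807 without DMSO replicate 2. Taco1, an activator of translation of a complex IV subunit in mitochondria, and Lrpprc, which stabilises mitochondrial mRNA, fell by 28.2% and 24.9% (limma adjusted p = 0.0194 and 0.0127). These calls were lost without DMSO replicate 2 (0.116) or TMP269 replicate 1 (0.0593) for Taco1, and without TMP269 replicate 2 (0.0871) for Lrpprc. The difference in share between assembly factors and subunits was not tested.

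Among 7 subunits and partners whose names the rule did not take, 4 fell (57.1%), beside 14.7% of all tested genes called lower. Higd1a, a hypoxia-induced partner of complexes III and IV, had 2769 and 3226 normalised reads in the TMP269 libraries, against 4980.2 and 5681 in the DMSO libraries. It was 43.8% lower, with separate groups (log2 fold change -0.83 ± 0.10 (SE), limma adjusted p = 0.00104). Atpif1, the inhibitor that stops the ATP synthase from running backwards, had 1239 and 1298 normalised reads in the TMP269 libraries, against 1628 and 1721 in the DMSO libraries (log2 fold change -0.40 ± 0.08 (SE), limma adjusted p = 0.00867). Cytochrome c itself, Cycs, and Ndufab1, the acyl carrier subunit of complex I, were the others that fell (limma adjusted p = 0.0485 and 0.0390, chosen after their values were seen). Cycs was not called without TMP269 replicate 1 or without DMSO replicate 2 (adjusted p = 0.263 and 0.219). Ndufab1 was not called without TMP269 replicate 1 or without DMSO replicate 2 (adjusted p = 0.159 and 0.216).

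Of 17 tested regulators of respiratory genes 2 fell (11.8%) and 1 rose, beside 14.7% of all tested genes called lower and 12.8% higher. The median log2 fold change of the regulators was -0.12. Gabpa, the DNA-binding subunit of the ETS factor named above, was at 1711 and 1838 normalised reads in the TMP269 libraries, against 2117 and 2263 in the DMSO libraries (log2 fold change -0.30 ± 0.08 (SE), limma adjusted p = 0.0258), and without TMP269 replicate 1 or DMSO replicate 2 it was not called (0.175 and 0.119). In RefSeq its span overlaps that of the complex V gene Atp5j, which was at 2866 and 3177 normalised reads in the TMP269 libraries, against 3504 and 4150.3 in the DMSO libraries (log2 fold change -0.34 ± 0.10 (SE), limma adjusted p = 0.0357, and 0.163 without TMP269 replicate 1 and 0.184 without DMSO replicate 2). Myc fell by 19.5% and Polg, the mitochondrial DNA polymerase, was called higher (log2 fold change 0.29 ± 0.08 (SE), limma adjusted p = 0.0213). The Myc call was lost without TMP269 replicate 1 (0.0877) or TMP269 replicate 2 (0.124). That of Polg was lost without TMP269 replicates 1 (0.154) or 2 (0.0634) or DMSO replicate 2 (0.0807). With equal library totals the adjusted p was 0.0798 for Gabpa and 0.0786 for Myc.

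Nuclear genes for mitochondrial ribosomal proteins and for citric acid cycle enzymes had medians near that of the subunits. The assembly factors above had a weaker median log2 fold change of -0.16. Mitochondrial ribosomal protein genes, which make the proteins encoded in mitochondrial DNA, fell in 43 of 77 cases (55.8%). Their median log2 fold change was -0.34, beside -0.34 for the subunits. Citric acid cycle enzyme genes fell in 11 of 14 cases (78.6%, median -0.36). Of all tested genes 14.7% were called lower. Idh3a, a subunit of the NAD-dependent isocitrate dehydrogenase, had 2025 and 2022 normalised reads in the TMP269 libraries, against 2857 and 3139.6 in the DMSO libraries (log2 fold change -0.57 ± 0.08 (SE), limma adjusted p = 0.00195). Suclg2, a subunit of succinyl-CoA synthetase, fell by 33.6%, and the ribosomal protein genes Mrps28 and Mrpl15 by 46.1% and 32.7% (limma adjusted p = 0.00195, 0.00185 and 0.00364). Differences between these groups were not tested.

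**Figure D4:**
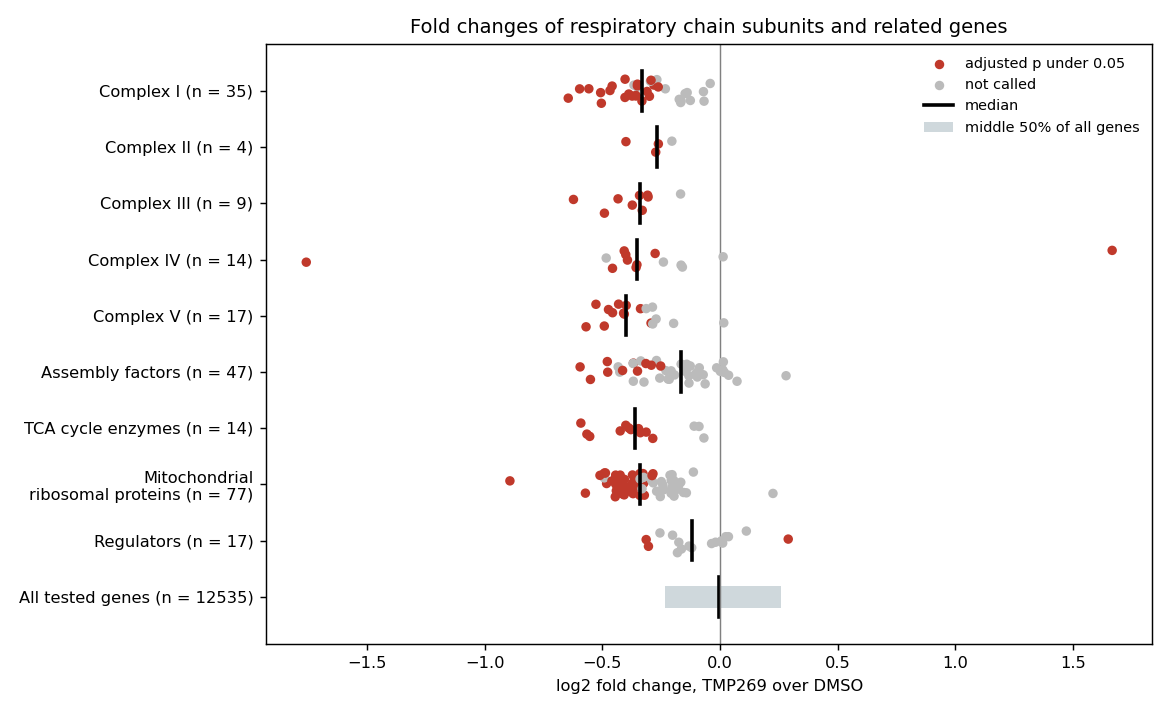
log2 fold change of TMP269 over DMSO (x axis) for each tested gene of the 5 complexes and of related groups, red where the limma adjusted p was under 0.05, with the median as a black line. Medians of the complexes lie between -0.40 and -0.27, whereas the median of all tested genes is 0.00, and 1 complex IV gene, Cox6b2, lies far to the right.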

How the data were processed

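Poly(A)-selected RNA of 2 TMP269 and 2 DMSO samples was sequenced, per the labels' protocols. The 4 chromatin immunoprecipitation libraries of HDAC4 and HDAC7 and 2 inputs of the series are not analysed here. The deposited table holds a normalised signal per gene, reads divided by 1 size factor per library. This was read from the values: multiplied by that factor (0.967 and 1.05 for TMP269 replicates 1 and 2, 1.11 and 0.829 for DMSO replicates 1 and 2), 100% were whole within 1e-06. Columns headed WT are the DMSO samples, per the labels. The submitters' processing notes name CASAVA 1.4, Bowtie2, TopHat2 2.1.0, HTSeq, DESeq2 and build mm9, without roles. Annotation, strand setting and treatment of multiply mapped reads are unknown here, so values are uncertain for genes with processed pseudogenes and for 27 of the 82 genes, which overlap another gene in RefSeq.

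Tests used limma 3.58.1 (R 4.3.3) with a trended prior on log2 of the value plus a pseudocount of 1. The 12535 genes that reached 10 in 2 or more libraries were tested, and genes were called at a two-sided Benjamini-Hochberg adjusted p under 0.05. Folds on this scale understate changes of low genes. An exact test of 2 against 2 cannot go below p = 0.333, so p-values rest on the spread shared across genes. The script was tested on simulated data. Alternatives were edgeR 4.0.16 with TMM and DESeq2 1.42.0 on the recovered reads, other scalings, pseudocounts and filters, a replicate block and each library left out in turn, whose lone partner is taken to have the spread of the other group. The members and lists were chosen with earlier results of these data known. Named genes were the 3 called genes of smallest p per complex and direction, core redox subunits, isoform families, the 2 genes nearest the threshold on each side, and up to 2 called genes per direction in each related list. Others were chosen after their values were seen, and some genes that the rule takes are not reported here.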

Additional observations from a re-analysis of the deposited data

How the results depend on the processing

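The negative median of the subunits held in every alternative run, between -0.40 and -0.24, and 1 subunit, Cox6b2, was called higher in each. The number of subunits called lower, 51 with limma on all libraries, was 50 with edgeR and 44 with DESeq2, which called 1750 and 1528 of all genes lower. It was 28 with equal library totals and 31 with equal totals without Rn45s, and 23 to 53 with 1 library left out, where all genes called ran from 2078 to 3675 (3448 with all libraries). By complex, the subunits called lower with equal totals belonged to complexes IV and V apart from those counted next. With Rn45s in the totals, 9 subunits of complex I were called lower, 1 of complex II and 3 of complex III. Without it the numbers called lower were 11, 1 and 4. With 1 library left out they ran from 9 to 21 for complex I, 0 to 2 for complex II, 3 to 8 for complex III, 4 to 10 for complex IV and 6 to 14 for complex V. Fewer samples remain in the fits without a library, and the cause of the other changes was not tested. Some subunits that were not called turned sign. Of the 79 tested, 3 had a positive fold change with all libraries, 6 with either form of equal totals and 7 without TMP269 replicate 1. As examples, values with 1 library left out ran from -0.13 to 0.16 for Cox7a2l, from -0.36 to 0.041 for Cox7b and from -0.42 to 0.074 for Ndufa4. With the replicate number as a block 69 subunits (87.3%) were called lower, beside 26.7% of all genes, and 6360 genes were called in either direction. Deviations of same-numbered libraries correlated at r = 0.37 across genes, which are not independent replicates, but with 2 pairs and no label that ties the numbers together the pairing is not established. With 2 libraries a group, small changes in genes with uneven replicates were not detectable.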

Other observations

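Replicate 2 was higher than replicate 1 for most subunits in both groups. This held for 60 of 79 tested subunits in TMP269 (75.9%, beside 50.8% of all tested genes) and 68 in DMSO (86.1%, beside 53.4%). It held in both groups for 54 subunits (68.4%) and for 35.9% of all tested genes. On the log2 scale, replicate 2 exceeded replicate 1 by 0.58 in TMP269 and 0.41 in DMSO for Ndufc2, by 0.56 and 0.14 for Atp5l, by 0.49 and 0.30 for Ndufa4, by 0.46 and 0.21 for Cox6c and by 0.44 and 0.34 for Ndufa5. None of these 5 genes, which had the widest gaps in TMP269 among those higher in replicate 2 of both groups, was called. Cox4i2 and Cox7a1 had gaps of 1.02 and 0.47 in TMP269 and of -0.23 and -0.17 in DMSO. Cox6b2 ran the other way, with -0.26 in TMP269 and -0.58 in DMSO.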
